A study of Rattus norvegicus with 20 samples.

Results

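Serum was compared with 14 solid tissues of the rat by small RNA sequencing. The 3 serum libraries were taken by their sample labels from the 20 libraries of the series and set against the 14 tissue libraries that each hold the miRNA of 3 rats; the 3 brain hemispheres of the same series were left out. Tissues and serum were taken from the same cohort of 3 rats, so the pools and the serum libraries share animals and are not independent samples of the strain. All were untreated male Long Evans Hooded rats at postnatal day 35, so the groups differ in the kind of sample and not in a treatment. The pools were fat, heart, kidney, large intestine, liver, lung, skeletal muscle, pancreas, skin, small intestine, spleen, stomach, testes and thymus, and each was sequenced once. Serum was run as individual samples, labelled replicate 1 to replicate 3, and its RNA was purified with a kit for serum and plasma, whereas the tissues went through another kit, so sample type and extraction kit cannot be told apart.

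miRNAs are cut from hairpin precursors into a 5p and a 3p arm, and 1 arm is usually kept in the Argonaute protein, where bases 2 to 8, the seed, choose the target mRNAs. Serum holds no tissue of its own. Its miRNAs are carried in vesicles, lipoproteins and Argonaute complexes, and are known to come from blood cells, platelets, endothelium, liver and other organs.

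The files list 444 precursors, and a level is given here in RPM, reads scaled to 1000000 counted on precursors in the same library. The serum libraries were shallow, with 7556, 10862 and 7930 precursor reads in replicates 1, 2 and 3, against 162080 to 3685761 in the pools (median 593805.5). A level that rests on 3 reads was therefore 397, 276 and 378 RPM in the single serum libraries and 114 RPM in the 26348 serum reads together, but 0.814 to 18.5 RPM in the pools. At least 1 read was seen in at least 1 serum library for 199 precursors, in every serum library for 101, and 53 had at least 10 reads in each. Another 245 precursors had under 1 read in every serum library, and 120 of these had at least 10 reads in some pool. In the pools these are total levels of a bulk tissue, in which fewer cells of a type and less RNA per cell cannot be told apart. Serum levels are likewise totals of the sample. The tissue labels were checked against their known miRNAs. In the library labelled pancreas, mir-216a and mir-217, acinar miRNAs, had no read, while mir-122, the hepatocyte miRNA, stood at 14862 RPM beside 14726 RPM in liver, and its log2 levels followed those of the liver pool (r = 0.99 over 107 precursors). Without it the counts of precursors that differed were within 1 of those given below.

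The arms below are shown because their precursors carried the largest or best covered differences, or because they share a seed while their levels went opposite ways. Sequences are from RefSeq (GRCr8), 5′ to 3′, with the seed in capitals. The first set is of arms whose precursors were higher in serum, with pairs that share a seed placed together.
miR-351-5p: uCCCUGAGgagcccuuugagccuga
miR-125a-5p: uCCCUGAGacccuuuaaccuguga
miR-92a-3p: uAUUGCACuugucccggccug
miR-92b-3p: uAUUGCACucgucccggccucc
miR-146a-5p: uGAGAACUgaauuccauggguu
miR-146b-5p: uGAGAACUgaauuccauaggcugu
miR-140-3p: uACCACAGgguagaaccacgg
miR-423-5p: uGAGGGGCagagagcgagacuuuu
miR-191a-5p: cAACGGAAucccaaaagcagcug
miR-23a-3p: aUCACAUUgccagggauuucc
miR-99b-5p: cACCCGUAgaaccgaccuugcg

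The second set holds the let-7 arms, which have 1 seed between them. The let-7b precursor was higher in serum, and those of let-7e and let-7f-1 were lower.
let-7b-5p: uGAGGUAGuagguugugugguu
let-7e-5p: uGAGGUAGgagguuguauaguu
let-7f-5p: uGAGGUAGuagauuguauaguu

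The third set is of other arms whose precursors were lower in serum. miR-103-3p and miR-107-3p share a seed.
miR-21-5p: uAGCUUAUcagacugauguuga
miR-22-3p: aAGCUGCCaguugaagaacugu
miR-103-3p: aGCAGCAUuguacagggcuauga
miR-107-3p: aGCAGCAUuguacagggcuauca
miR-101a-3p: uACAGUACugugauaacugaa

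The last set is of 3 arms with a known source or with the highest serum level, none of whose precursors passed the test.
miR-451-5p: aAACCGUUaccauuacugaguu
miR-122-5p: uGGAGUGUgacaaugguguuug
miR-10a-5p: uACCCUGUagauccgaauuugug

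The most abundant precursors of serum were a mixture of miRNAs that are abundant in many tissues and miRNAs that were low in every pool. Highest was mir-10a, a miRNA of the Hoxb cluster, with 113420, 158440 and 75032 RPM in serum replicates 1, 2 and 3. The pools ran from 3492 RPM in testes over a median of 41110 to 159310 in kidney, so serum lay inside their range. Its relative mir-10b, of the Hoxd cluster, had 145980, 71718 and 95460 RPM in serum, within the 1110 to 232050 RPM of the pools. mir-16, which is abundant in blood cells, had 26601, 20070 and 31400 RPM, inside a pool range of 3808 (stomach) to 40187 RPM (thymus). None of these 3 passed the test described next, and their fold changes changed sign with the scaling. mir-143, a smooth muscle miRNA, had 31895, 52200 and 29382 RPM in serum against a pool median of 128540, and only 1 serum library reached the lowest pool, liver with 48896.

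mir-122 was the fourth most abundant precursor in serum, but its level was set by 1 library. Replicates 1, 2 and 3 held 160, 1544 and 82 reads of it, or 21175, 142150 and 10340 RPM. Apart from liver and the library labelled pancreas, the highest pool was fat, with 8.17 RPM. Serum replicate 2 thus stood far above both of those pools, replicate 1 above them by less, and replicate 3 below them. The log2 difference from the pools was 4.78 ± 2.28 (SE) and did not pass (adjusted p = 0.18, edgeR's quasi-likelihood test with Benjamini-Hochberg adjustment). The 10 most abundant precursors of serum made up 57.6%, 63.1% and 50.0% of the serum reads and between 12% (pancreas) and 69.4% (stomach) of the pools' reads.

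**Figure D1:**
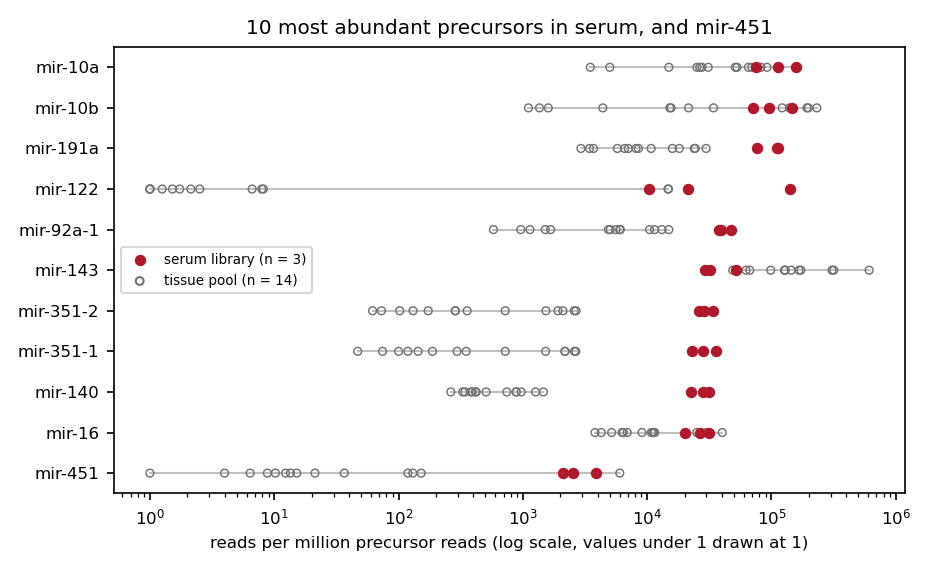
Levels in RPM (x axis, log scale) of the 10 precursors with the highest mean in serum and of mir-451, with 1 filled point per serum library and 1 open point per tissue pool. mir-191a, mir-92a-1, mir-351-1, mir-351-2 and mir-140 lie above every pool in all 3 serum libraries, while mir-10a, mir-10b and mir-16 lie within the range of the pools.

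The main comparison asked which precursors differ between serum and the tissues as a set. edgeR's quasi-likelihood test was run on rounded counts over 236 precursors, those that reached 10 counts in 3 or more of the 17 libraries. The 14 pools formed 1 group, so the spread between tissues is the error against which serum was read. The 3 serum libraries are 1 kind of sample, and adjusted p-values can therefore be too small as a measure of the spread between kinds. At an adjusted p under 0.05, 28 precursors were higher in serum (11.9% of those tested) and 13 were lower (5.51%). For 24 of the 28 (10.2%) every serum library lay above every pool, and for all 13 (5.51%) every serum library was listed below every pool. For 4 of the 13, which had no serum read, the lowest pool was under the level of 3 serum reads, so that 0 reads do not place serum below it. At an unadjusted p under 0.05 the counts were 36 and 30. Depth limits decreases more than increases, since for 129 of the 236 the pool median itself was under the level of 3 serum reads.

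These counts depend on the scaling and on the tool. Relative to total precursor reads, the median log2 difference of all 236 was −0.83. With TMM factors in edgeR it moved by −1.35 to −2.18, and 14 were higher (5.93%) and 40 lower (16.9%), so that 25.9% of the calls were increases instead of 68.3%. DESeq2, which differs in both the scaling and the test, had a median of −0.85 and gave 20 higher (8.47%) and 56 lower (23.7%). That median cannot be read as the shift from its scaling alone. The differences of mir-140 and mir-423 moved from 5.37 and 3.74 to 4.04 and 2.39 with TMM and to 4.11 and 2.49 with DESeq2. For the 4 lower precursors with no serum read, the fitted differences were smaller in size with DESeq2 than in either edgeR fit. All 13 lower precursors were also called with TMM and with DESeq2. This is no independent check, since the rescaling makes lower calls easier to keep than higher ones. mir-21 and mir-28 moved from −4.15 and −1.84 to −5.83 and −3.29 with TMM and to −5.69 and −3.14 with DESeq2. Of the 28 higher ones, 12 were called with both: let-7b, mir-139, mir-140, mir-184, mir-191a, mir-23a, mir-320, mir-328a, mir-342, mir-351-1, mir-351-2 and mir-423. Depth bears on the rest of the list. Of the 28, 17 had at least 10 reads in each serum library, whereas 7 (mir-139, mir-149, mir-15b, mir-328a, mir-664-2, mir-671 and mir-9a-3) rested on 12 or fewer serum reads in all. Without serum replicates 1, 2 and 3 in turn, 20, 20 and 21 precursors were higher and 7, 5 and 8 lower. Called without each of them were 15 higher (let-7b, mir-139, mir-140, mir-146a, mir-151, mir-191a, mir-23a, mir-320, mir-328a, mir-351-1, mir-351-2, mir-423, mir-671, mir-92a-1 and mir-99b) and 5 lower (let-7e, let-7f-1, mir-148b, mir-21 and mir-3596d). Among the lower calls here and above, let-7f-1 and mir-3596d are not separate observations, as described below.

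**Figure D2:**
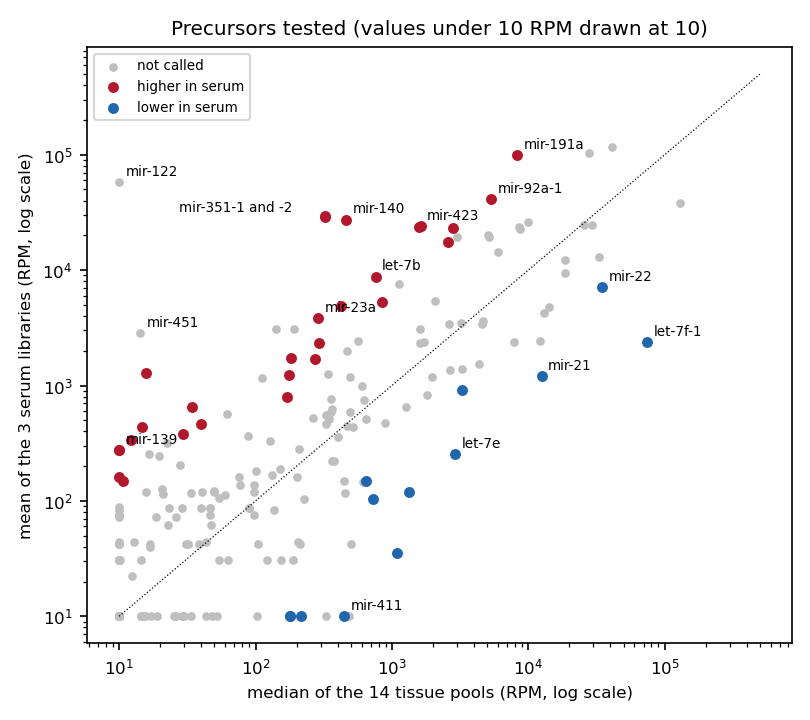
Mean of the 3 serum libraries (y axis) against the median of the 14 tissue pools (x axis), both in RPM on log scales, for the 236 precursors tested; the dotted line marks equal levels. The 28 precursors higher in serum (red) include mir-140 and both mir-351 copies at about the same serum level as mir-423, and the 13 lower ones (blue) include let-7f-1, mir-21 and let-7e.

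mir-140, best known from cartilage, had the largest difference of all precursors higher in serum. Its 211, 247 and 251 reads gave 27925, 22740 and 31652 RPM in serum replicates 1, 2 and 3. The pools ranged from 263 RPM in large intestine over a median of 464 to 1464 in thymus (95% Wilson interval of that library 1374 to 1559, counting error only), so that the serum mean of 27439 ± 4476 RPM (SD, n = 3) was 18.7 times the highest pool. The log2 difference was 5.37 ± 0.45 (SE; edgeR adjusted p = 1e-07), and it was 4.04 with TMM. The reads behind it were hardly seen on the annotated arms, with 4 reads on miR-140-3p and 0 on miR-140-5p in all 3 serum libraries, against 709 on the precursor. In the pools, too, the mature rows of mir-140 held on average 3.74% of the precursor's reads. The end positions of these reads are not given in the files used here.

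mir-351-1 and mir-351-2 are copies that give the same miR-351-5p, so they count as 1 observation. Serum held 213, 251 and 285 reads of the first and 218, 284 and 268 of the second. That was 28190, 23108 and 35939 RPM for mir-351-1, with pools from 47.0 (small intestine) over a median of 323 to 2670 (lung). The lowest serum library was above the highest pool. The log2 differences were 4.95 ± 0.90 and 4.99 ± 0.86 (SE; edgeR adjusted p = 0.00078 and 0.00054). The mature row held nearly the whole of it, since miR-351-5p had 1510 serum reads, and its own log2 difference was 5.03 (edgeR adjusted p = 0.00071). miR-351-5p has the seed of the miR-125 family, and mir-125a was also higher in serum with 3706, 7457 and 4666 RPM. Its highest pool was lung, at 3708 RPM, so replicate 1 of serum was level with lung and the log2 difference was 2.32 ± 0.60 (edgeR adjusted p = 0.0090; 0.20 with TMM).

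mir-191a, a miRNA of blood and many other cells, was the third most abundant precursor of serum, with 112490, 76413 and 109960 RPM. Pools lay between 2936 in kidney and 29834 in spleen, with a median of 8333, and the log2 difference was 3.04 ± 0.55 (edgeR adjusted p = 0.00078). mir-425, which comes from the same transcript, was also higher but far less abundant, with 1324, 1381 and 2396 RPM in serum and at most 1246 in the pools, in spleen. mir-423, which is often found in cell-free serum, had 27792, 16848 and 27364 RPM against at most 3716 in spleen (pool median 1631), and its log2 difference was 3.74 ± 0.49 (edgeR adjusted p = 5.4e-05). Nearly all of it was the 5p arm, with 569 reads of miR-423-5p beside 27 of miR-423-3p. mir-320, a hairpin made without Drosha, had 1588, 1289 and 2270 RPM in serum and at most 404 in the pools, in skin.

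mir-92a-1, of the mir-17~92 cluster, had 39307, 37930 and 47037 RPM in serum. Thymus was its highest pool with 14940 RPM, followed by liver with 13162, and the pool median was 5337. All 3 serum libraries were above all pools, by a log2 difference of 2.79 ± 0.68 (edgeR adjusted p = 0.0076), which was 1.42 and did not pass with TMM (adjusted p = 0.13). The second copy, mir-92a-2, had 2912, 2670 and 3657 RPM, all above its highest pool, thymus at 2610, and did not pass in edgeR (log2 difference 2.68, adjusted p = 0.058), while DESeq2 called it higher. On mature rows, miR-92a-3p had only 50 serum reads, again with a higher level than in the pools (log2 difference 3.00, edgeR adjusted p = 0.0076). mir-92b, whose arm has the same seed, had 12, 11 and 10 reads and a serum mean of 1287 RPM against a pool median of 15.8. Its exception among the pools was lung, at 745 RPM, while spleen came next with 42.2.

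Among the remaining precursors that were higher in serum on at least 10 reads per library, mir-23a had the largest log2 difference, 3.20 ± 0.60 (edgeR adjusted p = 0.0011), with 3176, 3590 and 4666 RPM against at most 924 in skin. let-7b had 6617, 7365 and 12358 RPM against at most 4528 in lung (log2 difference 2.81 ± 0.66, edgeR adjusted p = 0.0071). mir-151, mir-146b, mir-146a, mir-99b and mir-676 had means of 23063, 23607, 17471, 4875 and 2322 RPM and highest pools of 9137, 10360, 9044, 2650 and 887 RPM. These 5 were higher by 2.74, 2.96, 2.46, 2.87 and 2.72 on the log2 scale, and of them only mir-146a was still called with TMM. The precursors on few reads had pool levels that were lower still. mir-139, with the second largest difference (log2 5.28 ± 1.03, edgeR adjusted p = 0.0014), rested on 2, 2 and 3 serum reads, a mean of 276 RPM, with a pool median of 5.83 RPM. mir-9a-3 was called on 4 serum reads. The 4 called precursors that overlapped with the pools were mir-125a, mir-184, mir-24-1 and mir-421, and of the 13 serum reads of mir-184 replicate 2 held 10.

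**Figure D3:**
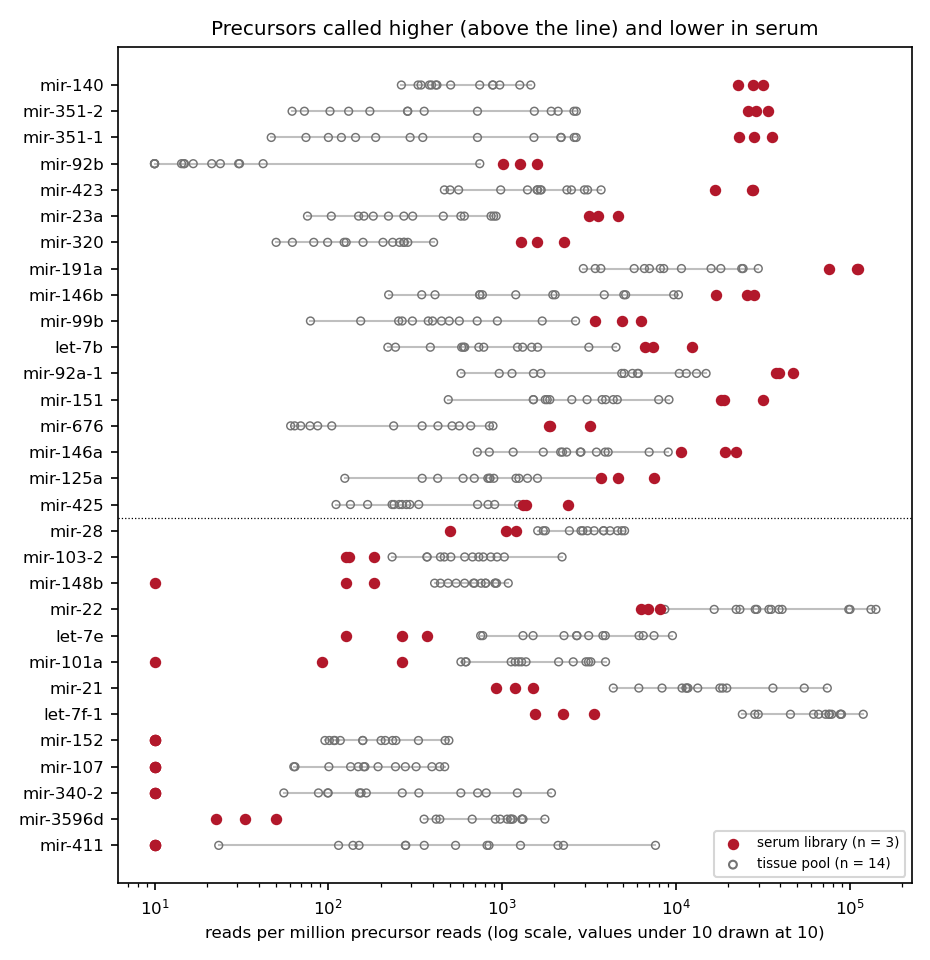
Levels in RPM (x axis, log scale) of the 17 precursors higher in serum that had at least 10 reads in each serum library (above the dotted line) and of the 13 lower in serum, with 1 filled point per serum library and 1 open point per pool. Among the higher ones, mir-140 and the mir-351 copies are farthest from the pools and mir-125a and mir-425 are next to their highest pool; points at 10 RPM in the lower part are libraries with no read.

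Of the precursors lower in serum, let-7f-1 had the largest absolute loss. Its estimated reads of 25.6, 16.8 and 17.7 gave 3391, 1542 and 2237 RPM, while pools ran from 24156 in small intestine over 74445 to 119970 in spleen. The serum mean was 0.0199 of the highest pool, and the log2 difference was −4.81 ± 0.67 (edgeR adjusted p = 7.7e-05). Some reads of this locus are shared between features, as the fractional counts show. The list also holds mir-3596d, a hairpin that overlaps let-7f-1, with 0.9 serum reads in all against pools of 356 to 1764 RPM. The median pool was at least 9.6-fold higher than a floor of 3 reads over the 3 serum libraries. Its serum counts of 0.4, 0.2 and 0.3 were rounded to 0 in the fit. Its serum mean was 0.0322 of the pool median, beside 0.0321 for let-7f-1. The 2 hairpins thus kept a fixed proportion, as rows that divide the same reads, and they count as 1 observation. The mature row does not depend on that division between hairpins: let-7f-5p had 27, 18 and 22 serum reads, or a mean of 4047 RPM of mature reads, against 31090 to 159100 in the pools, with a log2 difference of −4.60 (edgeR adjusted p = 0.00020). The second copy, let-7f-2, had 5294, 4787 and 4414 RPM in serum, close to its lowest pool (small intestine, 4141), and did not pass (log2 difference −1.69, edgeR adjusted p = 0.093).

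mir-21, one of the most widely expressed miRNAs, was low in serum with 9, 10 and 12 reads, or 1191, 921 and 1513 RPM. Every pool was higher, from 4368 RPM in skeletal muscle over 12560 to 74472 in the library labelled pancreas and 54878 in liver. The log2 difference was −4.15 ± 0.97 (edgeR adjusted p = 0.0071), and −2.83 for miR-21-5p. mir-22, abundant in heart and liver, had 8073, 6905 and 6305 RPM, just under its lowest pool, thymus at 8645, and far under heart at 141860 (log2 difference −2.92 ± 0.87, edgeR adjusted p = 0.023). mir-28 had 8, 13 and 4 reads, a mean of 920 RPM, with all pools between 1604 and 5073 RPM. mir-101a and let-7e rested on 3 and 7 serum reads, and their lowest pools stood at 580 RPM in testes and 754 in pancreas.

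Of the precursors called lower, 4 had no read at all in serum. They were mir-411, mir-340-2, mir-107 and mir-152, each with a serum limit of 114 RPM, the level of 3 reads over the 3 serum libraries. The pool medians of 449, 216, 178 and 180 RPM were at least 3.94-fold, 1.90-fold, 1.56-fold and 1.58-fold higher than that limit, while their lowest pools were under it. mir-148b had 3 reads on the precursor against 409 to 1086 RPM in the pools (log2 difference −2.74, edgeR adjusted p = 0.0090). Its mature row went the other way, with miR-148b-3p at 3 reads and a log2 difference of 1.32 that did not pass (edgeR adjusted p = 0.29). mir-103-2 was called lower with 1, 2 and 1 reads, whereas the other copy of the same miRNA, mir-103-1, had 3, 7 and 4 reads and did not pass (log2 difference −0.51, edgeR adjusted p = 0.64). The shared miR-103-3p did not pass either (log2 difference −0.95, edgeR adjusted p = 0.37).

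Across the mature rows, counted with the same filter and test, 26 arms were higher and 11 lower in serum among 222 tested. Of the 28 precursors higher in serum, 25 had an arm that was tested and 23 had an arm called higher. Of the 13 lower ones, 12 had a tested arm and 6 an arm called lower. No arm of either set was called in the opposite direction. Among the arms higher in serum, 3 belonged to other miRNAs, and let-7d-3p was one. It had 13, 14 and 11 serum reads and a log2 difference of 3.88 (edgeR adjusted p = 0.0034). let-7d-5p, the other arm of the hairpin, had 6, 14 and 13 reads and a log2 difference of −0.86 (adjusted p = 0.39). The row of the let-7d precursor held fewer reads than its arms, and its log2 difference was 0.01 (edgeR adjusted p = 0.98). Among the arms lower in serum, 4 belonged to other miRNAs. They were miR-126a-3p, miR-130a-3p, miR-143-3p and miR-322-5p (edgeR adjusted p = 0.0034, 0.019, 0.04996 and 0.037). let-7d-3p and these 4 were named here after their values were seen.

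Blood cells can add miRNAs to serum, and their known miRNAs were read as lists. Red cells are marked by mir-451, a hairpin cut by Argonaute instead of Dicer, and by mir-144 of the same cluster. mir-451 had 19, 23 and 31 reads in serum, or 2515, 2118 and 3909 RPM. Spleen, which holds many red cells, had 6026 RPM, lung came next with 152, and the pool median was 14.3, so that serum lay above 13 pools and below 1. The log2 difference of 2.61 ± 1.70 did not pass in edgeR (adjusted p = 0.34), while DESeq2 called it (log2 4.59, adjusted p = 0.00016). Without the spleen pool it was also called in edgeR, at a log2 difference of 6.12 (adjusted p = 0.000355). mir-144 had 2, 1 and 3 reads in serum, a mean of 245 RPM, against 6790 RPM in spleen and at most 198 in the other pools.

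The 8 red cell precursors listed summed to 76231, 67943 and 93947 RPM in serum, above all 14 pools, whose range was 5892 (stomach) to 66342 RPM (thymus). That sum was carried by mir-92a-1 and mir-16 and not by the more specific mir-451, and with TMM scaling 2 pools were above serum. Of 7 tested, edgeR called 1 higher (mir-92a-1) and none lower, beside 11.9% higher over all tested, and the median log2 difference was 1.20 beside −0.83. With TMM no member was called and the median was −0.01, and DESeq2 called mir-451 and mir-92a-2 higher. The ratio of mir-451 to mir-23a within a library, which is in use as a measure of red cell lysis in serum, was 0.792, 0.590 and 0.838 in the serum libraries. It was 13.1 in spleen, and the pool median was 0.097. The part of red cells in the serum levels was not tested.

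Of 6 leukocyte precursors, mir-146a and mir-146b, both induced by inflammatory signals in immune cells, were higher in serum in edgeR and none was lower (median log2 difference 2.22), beside 11.9% higher over all tested. With TMM mir-146a alone was called and with DESeq2 mir-146b alone. The sum of the list was 61540, 34984 and 59521 RPM, above 12 pools and below spleen and thymus. mir-142, found across blood cell lineages, had 9661, 4511 and 8701 RPM against 65299 in thymus and 59167 in spleen, and was not called in edgeR or DESeq2 or with TMM. mir-150, of mature lymphocytes, had 4103, 2486 and 2648 RPM, close to or above the 2498 of spleen (log2 difference 2.72, edgeR adjusted p = 0.086). mir-223, the granulocyte miRNA, was seen with 2, 1 and 2 reads, and mir-155 with 1 read in all.

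The mir-17~92 cluster and its paralogs summed to 51979 RPM on average, above all 14 pools, whereas with TMM 11 pools were below every serum library and 1 was above. Of 13 tested members edgeR called 1 (mir-92a-1, higher), a share under the 11.9% over all tested. With TMM none was called, and with DESeq2 mir-92a-2 was called higher and mir-19b-1 lower. mir-92a-1 supplied 1082 of the 1354 serum reads of the 14 members, and 4 members had no read. The remaining cluster members stayed near the floor. mir-17-1 and mir-20a had 2 serum reads each, mir-19b-1 had 4, and mir-18a and mir-19a none. A list of 9 precursors of miRNAs that are often abundant in cell-free serum went both ways. Among 8 tested, edgeR called mir-140, mir-320 and mir-423 higher and mir-21, mir-107 and mir-103-2 lower. Over all tested, 11.9% were higher and 5.51% lower. TMM and DESeq2 called these 6 and mir-103-1 (lower). Over all tested, TMM called 5.93% higher and 16.9% lower, and DESeq2 8.47% and 23.7%.

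Organ-restricted miRNAs other than mir-122 were rare in serum. Of the 7 striated muscle precursors 4 had no serum read, and 23 of the 26 reads of the list came from replicate 3, mostly through mir-133a (0, 2 and 12 reads) and mir-1 (0, 1 and 8 reads). No member was called among 4 tested, in edgeR or DESeq2 or with TMM, and skeletal muscle itself had 68920 RPM of mir-133a. The 5 epithelial mir-200 precursors had 4 serum reads together, with mir-200a, mir-200b and mir-429 at 0, against 15432 RPM for the list in large intestine. Neither these nor the stratified epithelium list (4 reads in all) had a called member in edgeR, but DESeq2 called mir-141, mir-200a, mir-200b, mir-429 and mir-203a lower. Of all tested, DESeq2 called 23.7% lower. mir-375, of endocrine and gut epithelium, had 6, 5 and 8 reads, a mean of 754 RPM beside a pool median of 624, and was called lower by DESeq2 alone, while the other 3 precursors of the pancreas list (mir-216a, mir-216b and mir-217) had no serum read. mir-192, of gut, liver and kidney, was an exception in abundance with 25807, 19333 and 12989 RPM, inside a pool range of 1116 to 324180 RPM. It did not pass in edgeR, while DESeq2 called it lower together with mir-194-1 and mir-194-2.

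Of the precursors of vessel wall miRNAs, none was called in edgeR. On mature rows, however, edgeR called miR-126a-3p and miR-143-3p lower (adjusted p = 0.0034 and 0.04996). miR-126a-5p, the main arm of mir-126a, was not called (log2 difference −2.41, edgeR adjusted p = 0.11). Nor was miR-145-5p, whose log2 difference was 2.28 (edgeR adjusted p = 0.15). mir-126a, the endothelial miRNA, had 2118, 1289 and 3909 RPM in serum against 2289 (testes) to 42495 (heart), with a log2 difference of −2.57 (edgeR adjusted p = 0.082; called lower with TMM and DESeq2). The smooth muscle pair mir-143 and mir-145 summed to less than in 13 of 14 pools in every serum library, a sum set by mir-143. mir-145 itself had 529, 368 and 504 RPM, above 9 pools and below 3, with a log2 difference of 0.06. Neither precursor of the pair was called in edgeR (mir-143 log2 difference −2.20, edgeR adjusted p = 0.058). The mir-143 precursor was called lower with TMM and DESeq2, and in edgeR without the kidney, liver, skeletal muscle, pancreas or stomach pool (log2 difference −1.89 without stomach). Of the mesenchymal pair, mir-199a had 11, 13 and 7 reads and mir-214 had 1, and neither was called, although mir-199a was called lower with TMM and DESeq2. The 43 precursors of the imprinted Dlk1-Dio3 cluster had 93 serum reads in all, with 28 members at under 1 read and mir-411 the only edgeR call among 22 tested (lower, beside 5.51% over all tested), to which DESeq2 added mir-136 (lower). Of those reads 59 were mir-127, at 41, 13 and 5 in replicates 1, 2 and 3, so that its serum level ran from 631 to 5426 RPM against 47227 in skeletal muscle. Of 17 neuronal precursors 7 were tested, and edgeR called mir-9a-3 higher on its 4 reads, beside 11.9% over all tested. With TMM and DESeq2 it was not called (adjusted p = 0.36 and 0.21), and mir-338 was called lower. mir-128-1 was the most abundant with 29 reads, and mir-338 had none.

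The let-7 list was split. It leaves out let-7g, which has the same seed and did not pass in edgeR (log2 difference −1.47, adjusted p = 0.082). Among 11 members let-7b was called higher and let-7e and let-7f-1 lower, with a median log2 difference of −0.56 beside −0.83 over all tested. Of all tested, 11.9% were higher and 5.51% lower. With TMM and with DESeq2 the same 3 were called in the same directions, and let-7a-1, let-7a-2, let-7f-2, let-7i and mir-98 were called lower as well. Of all tested, TMM called 5.93% higher and 16.9% lower, and DESeq2 8.47% and 23.7%. let-7c-2, at 15749, 22279 and 22194 RPM, was the most abundant let-7 in serum, whereas let-7f-1 was the most abundant in the pools at a median of 74445 RPM. In the mir-30 list none of 5 was called in edgeR (median −0.53), but mir-30c-2 and mir-30e were called lower with TMM and DESeq2, and mir-30a with DESeq2. On mature rows edgeR called miR-30d-5p higher (log2 difference 2.02, adjusted p = 0.018) and no arm of the list lower. miR-30d-5p was named here after its values were seen. Calls of precursors that share an arm, such as the let-7a, let-7c and let-7f copies, are not independent of each other.

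Precursors that are cut from 1 transcript were read as ratios of reads within a library, which no scaling of libraries can change. These ratios were chosen after the levels were seen and are given without a test. mir-99b, let-7e and mir-125a lie on 1 strand, each within 10000 bases of the next. Serum held 13.0, 13.3 and 50.0 times as many reads of mir-99b as of let-7e, while the pools held 0.0874 (heart) to 0.540 (testes) times as many. For mir-125a over let-7e it was 14, 20.3 and 37 in serum and 0.157 to 0.594 in the pools. Both ratios thus lay above every pool in each serum library, though let-7e had 7 serum reads in all.

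The same kind of shift was seen in other clusters. mir-351-1 over mir-322-1 was 107, 31.4 and 40.7 in serum and 0.324 to 3.97 in the pools, with 17 serum reads of mir-322-1. mir-23a over mir-27a was 2.40, 4.88 and 3.08 against 0.250 to 1.72, with 30 serum reads of mir-27a. mir-24-1 over mir-27b was 0.0917, 0.0696 and 0.117 in serum and 0.00366 to 0.0119 in the pools. This ratio rests on 31 serum reads of mir-24-1, which shares miR-24-3p with mir-24-2, and 335 of mir-27b. By contrast, mir-191a over mir-425 (85.0, 55.3 and 45.9) overlapped with the highest pool, heart at 50.6, and mir-92a-1 had 541 times the reads of mir-17-1 over the serum libraries together on only 2 reads of the latter. mir-451 over mir-144 was 9.50, 23.0 and 10.3 in serum and 0.273 to 3.00 in the pools, on 6 serum reads of mir-144. The 2 let-7f copies, which lie apart, had let-7f-2 over let-7f-1 at 1.56, 3.10 and 1.97 in serum and 0.146 to 0.488 in the pools. let-7f-5p held 27, 18 and 22 serum reads, beside 25.6, 16.8 and 17.7 on let-7f-1 and 40, 52 and 35 on let-7f-2. This ratio, the difference of let-7f-1 and the mature share of let-7f given below thus rest on the same reads. They are not separate observations.

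**Figure D4:**
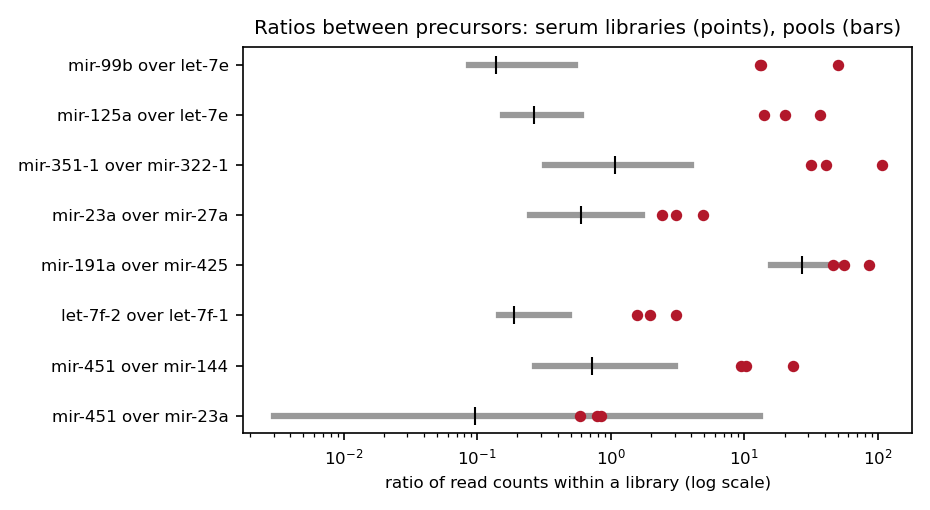
Ratios of reads between precursors within a library (x axis, log scale), with 1 point per serum library, a bar for the range of the 14 pools and a tick for their median. mir-99b over let-7e (13.0 to 50.0 in serum) and mir-125a over let-7e (14 to 37) lie farthest from the pools, and mir-451 over mir-23a lies inside their range.

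Base composition of the arms moved with the direction of the calls. The most abundant arm was matched to RefSeq for 178 tested precursors whose arm held at least 20% of the precursor's reads. Its median GC content was 52.2% for 22 precursors higher in serum, 45.5% for 9 lower ones and 45.5% for all 178, and 14 of the 22, 1 of the 9 and 53 of the 178 had a GC content of 50% or more. Single arms went both ways. Of the arms shown above that were higher in serum, miR-351-5p, miR-92b-3p and miR-99b-5p had 60%, 63.6% and 63.6%, but miR-146a-5p, miR-146b-5p and let-7b-5p had 40.9%, 41.7% and 45.5%, while let-7f-5p and miR-21-5p, which were lower, had 31.8% and 36.4%. Weighted by reads, the GC content of mature miRNAs was 47.7%, 46.7% and 47.7% in the serum libraries and 41.9% (spleen) to 45.7% (small intestine) in the pools. Over the 178 precursors, which share libraries and arms, the log2 difference had a correlation with GC content of r = 0.27 (rho = 0.29). The part of extraction or library preparation in this was not tested.

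At the level of whole libraries, the most abundant precursors took a smaller share of the reads in serum than in the pools. The 10 most abundant precursors of each library took 58.4%, 63.7% and 52.7% of the reads in serum, a mean of 58.2 ± 5.49% (SD, n = 3), against 63.3% (spleen) to 84.7% (stomach) in the pools, with a mean of 73.0 ± 7.71% (SD, n = 14). A two-sided exact permutation test of the means gave p = 0.0059, or 0.018 after Benjamini-Hochberg adjustment over 3 library measures. The smallest p that 680 arrangements allow is 0.0029. The serum libraries are of the same kind of sample, whereas the pools are labelled as different tissues. Permutation p-values here and below can therefore be too small as a measure of the spread between kinds of sample. On mature rows the difference in the share of the 10 most abundant did not pass (−8.53 percentage points, exact permutation p = 0.056). In 7556 reads, the depth of the shallowest library, 147 ± 3.42 precursors were expected in serum (n = 3) and 129 ± 13.5 in the pools (n = 14), a difference with an exact permutation p of 0.047 that did not pass after adjustment (0.071). Testes, at 154, was above all serum libraries. Reads counted on mature rows per 100 on precursors were 64.7, 64.6 and 68.4 in serum and 60.3 to 87.8 in the pools, which did not differ beyond the spread (exact permutation p = 0.28).

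That mean hid differences of both signs between single miRNAs. The share of a miRNA's precursor reads that were counted on its mature rows was compared for the 28 miRNAs with at least 30 precursor reads in every library, copies summed. By exact permutation tests with adjustment over the 28, the share was higher in serum for 13 (46.4%) and lower for 5 (17.9%). Replicates of the same kind of sample were again set against pools of different tissue labels. These calls therefore do not separate an effect of serum from the likeness of replicates. For 9 of the 13 all serum libraries were above all pools, and for 4 of the 5 all were below. Some of these differences were small: mir-22 and mir-16, among the 9, had serum means of 100% and 99.3% against pool means of 99.5% and 98.4%. mir-30a had 75.4%, 72.2% and 73.2% in serum against 18.6% to 46.0% in the pools, and mir-30d 52.0%, 61.5% and 61.6% against 19.1% to 42.2%. mir-146a, mir-27b and mir-10a rose from pool means of 48.2%, 89.2% and 87.4% to serum means of 68.8%, 97.9% and 97.2%. Each of these 5 reached the smallest p that the test allows (0.0029, adjusted 0.0063).

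The share fell for let-7f, to 41.1%, 26.2% and 41.7% in serum from 68.9% to 90.0% in the pools. It rests on the same reads as the let-7f-1 difference and the ratio of the let-7f copies, so these are not separate observations. mir-142 had 5.48%, 12.2% and 8.70% in serum against 28.7% to 60.6%, and mir-192 had 52.3%, 42.9% and 58.3% against 66.6% to 82.8%. The other lower shares, of mir-140 and mir-10b, were under 2% in every serum library and under 6% in every pool. Reads that are counted on a precursor and on no mature row are those that did not meet the counting rule for the annotated arm, and that rule is not given in the sources used here. For mir-351, mir-143 and mir-92a the mean shares of serum and pools were less than 1 percentage point apart.

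**Figure D5:**
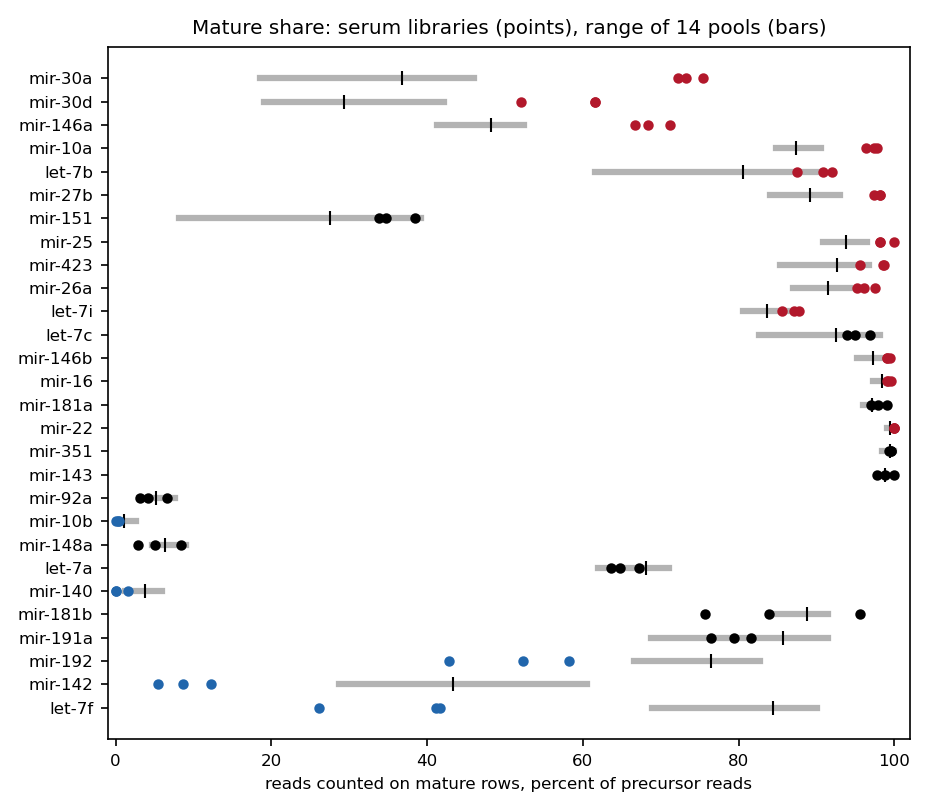
Percent of each miRNA's precursor reads that were counted on its mature rows (x axis), for the 28 miRNAs with at least 30 precursor reads in every library, with 1 point per serum library, a bar for the range of the 14 pools and a tick for their mean. Red points mark the 13 shares higher in serum, led by mir-30a and mir-30d, and blue points the 5 lower, with let-7f, mir-142 and mir-192 farthest from the pools; black points mark shares that did not pass the test.

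The serum libraries were closer to each other than to any pool. On log2(RPM + 100) over the 107 precursors with a mean level of at least 3 reads in the shallowest library, serum libraries had r = 0.94 to 0.96 with each other. The mean of serum had r = 0.72 with fat, 0.65 with spleen and 0.63 with lung, and the lowest with testes, 0.43. Pairs of pools ranged from 0.45 to 0.99 with a median of 0.71, so that serum and fat were about as alike as a typical pair of pools. These correlations are across precursors, which are not independent replicates, and are given as a description.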

How the data were processed

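Rat tissue and serum small RNA libraries were made with the TruSeq Small RNA kit, sequenced on a MiSeq, trimmed of base calls under phred 20 and aligned to Rn5 with Bowtie. The values the authors deposited are estimated counts (expected counts) per feature without normalization, for RefSeq, miRBase 21 precursor and miRBase 21 mature features, in which the same reads are counted under each annotation. Between 2.70% and 8.56% of the precursor counts of a library were fractional. Whether counting used strand is not given in the sources used here, so overlapping hairpins on opposite strands cannot be told apart. In the large intestine file the largest counts are rounded.

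The precursor counts were rounded and tested in edgeR 4.0.16 (R 4.3.3) with the quasi-likelihood test, library sizes equal to the precursor totals, no covariate and Benjamini-Hochberg adjustment at 0.05, serum against the 14 pools. SE is the log2 difference divided by the root of F. The fit was tested on simulated counts. A fitted log2 difference of a precursor with no serum read is not printed. Alternatives were TMM, DESeq2 1.42.0, other filters, each library left out, each tissue as its own group, and mature or RefSeq rows. With each tissue as its own group, the error came from the serum replicates alone. Serum was then set against the mean of the tissues' fitted log levels. Totals without mir-122 were added after seeing the data. Library measures, figures and sequence summaries used SciPy 1.17.1, Matplotlib 3.10.9, NumPy 2.4.6 and pandas 2.3.3 in Python 3.11.15. Nothing in the labels says that the serum libraries are from separate animals beyond their being run individually, so p-values measure the spread between these samples. Intervals and floors cover counting error only.

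Named precursors are mir-451, mir-140 and mir-92a-1, the 10 highest in serum, up to 10 in each direction with the largest difference among called precursors without overlap, and up to 4 of each list, plus the other called precursors and their cluster mates, which were chosen after their values were seen. The members and lists were chosen with earlier results of these data known. Sequences were matched by arm name; miR-151-3p, miR-328a-3p and miR-320-3p are named only. Positions are not given because the sequence table is on GRCr8 and the reads were aligned to Rn5. Brain was not analysed here.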

Additional observations from a re-analysis of the deposited data

How the results depend on the processing

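The counts of precursors higher and lower in serum (28 and 13, of which 24 and 13 without overlap) moved most with the scaling, the tool and the grouping of the tissues. TMM gave 14 and 40 (9 and 35 without overlap), and DESeq2 56 lower, with 12 and 40 without overlap. With each tissue as its own group, so that the error came from the serum replicates alone, they were 57 and 31. Serum was then set against the mean of the tissues' fitted log levels, so the differences changed as well as the error. Their median was 0.16 instead of −0.83. With each library left out in turn, 5 to 14 were lower in both counts, and the lowest, 5, was without serum replicate 2; without replicates 1 and 3 there were 7 and 8. The higher calls ranged from 20 to 32. Without any count filter there were 31 and 11, with a filter on the mean level 19 and 15, on mature rows 26 and 11, and with totals without mir-122 30 and 13. Called under every planned precursor setting were 8 higher (let-7b, mir-140, mir-191a, mir-23a, mir-320, mir-351-1, mir-351-2 and mir-423) and 5 lower (let-7e, let-7f-1, mir-148b, mir-21 and mir-3596d). In these lists the mir-351 copies count as 1 observation, and so do let-7f-1 and mir-3596d. The log2 differences of mir-10a, mir-10b and mir-16 turned to −0.45, −1.13 and −0.33 with TMM and to −0.21, −0.79 and −0.28 with DESeq2. Over the named precursors 978 alternative values kept direction and side of the threshold, 84 lost the call, 19 gained it and 6 turned.

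Without the 10 precursors most abundant in serum, the difference in mature reads per 100 precursor reads turned to 4.44 (exact permutation p = 0.13). The difference in expected precursors was 14.7 on RefSeq rows (p = 0.071, exact) and 16.5 to 19.7 without 1 serum replicate, and no longer passed at 0.05 unadjusted. The difference in the share of the 10 most abundant was −8.53 percentage points on mature rows (exact permutation p = 0.056). The causes were not tested. Serum depth sets the limit, since 3 reads are 276 to 397 RPM in a serum library. No paired analysis was possible because the pools carry no replicate numbers.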
